A study of Mus musculus with 8 samples.

Results

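The keratin genes were taken as every symbol of the deposited gene list made of Krt, a number and at most 1 lower case letter, which gave 53 of 31053 gene rows. Their unique molecular identifiers (UMIs, 1 per captured RNA molecule) were counted over all barcodes of 8 single-cell libraries from mouse colonic lamina propria, the connective tissue under the gut lining, and libraries from mice given dextran sodium sulfate (DSS, a detergent-like polymer that injures the colon epithelium) were set against untreated ones. All mice were C57BL/6, 10 to 12 weeks old and kept free of specific pathogens. There were 2 libraries, described as independent biological replicates, in each of 4 groups: wildtype untreated, mutant untreated, wildtype DSS and mutant DSS. Replicates 1 and 2 were numbered here in sample order within each group, so equal numbers do not link libraries of different groups. Mutant mice carried a substitution in RORγt, a transcription factor of IL-17-producing T cells, which the sample titles name S203AKI and the series text names RORgtS182A. DSS mice drank 2% DSS for 7 days and plain water for 3 days. Untreated mice drank plain water for 10 days, and every colon was taken on day 10. Untreated and DSS libraries thus came from different mice, and before and after treatment below name these arms. Cells from the digested colon were enriched for CD4+ T cells with a magnetic kit before loading on the 10x 3′ system, so any epithelial cell in these libraries is one that came through that enrichment.

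Keratins are the intermediate filament proteins of epithelial cells. A type I keratin pairs with a type II keratin to form a filament, and the pair in use marks the kind of epithelium: KRT8 with KRT18 in the single cell layer that lines the colon, KRT5 with KRT14 in the basal layer of stratified squamous epithelium such as skin, oesophagus and the anal canal, and other pairs in the layers above. A further set, with KRT6, KRT16 and KRT17, is known for its induction in stratified epithelium at wounds. Of the 53 genes, 27 lie on chromosome 11 between positions 99232761 and 100269871 and 26 on chromosome 15 between 101347444 and 102032027 (GRCm38). A UMI was found for 45 of them. The genes without one were Krt31, Krt34, Krt35, Krt40, Krt71, Krt72, Krt73 and Krt82.

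The libraries held 10563 to 16133 barcodes and 34497509 to 46960005 UMIs each. A count of 0 in a library therefore allows a level of up to 0.0639 to 0.087 counts per 1000000 UMIs (CPM), the unit of all levels here (3 counts of its total, counting error only). The label of enriched CD4+ T cells was met in part: 47.3 to 62% of the barcodes of a library had at least 3 UMIs of the T cell receptor genes Cd3d, Cd3e, Cd3g, Trbc1 and Trbc2. Summed T cell markers reached 1333 to 2096 CPM, beside 3509 to 8026 for B and plasma cell markers and 1405 to 3997 for fibroblast markers. The replicate 1 library of the untreated mutants stood apart, with 6470 keratin UMIs against 1104 to 1501 in the other untreated libraries, and results that rest on it are given with and without it. Of 99487 distinct barcode sequences, 1176 occurred in more than 1 library.

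Keratin UMIs made up 0.00263 to 0.014% of all UMIs in the untreated libraries and 0.0361 to 0.105% in the DSS libraries, and the keratins behind them differed. In the untreated libraries the simple-epithelium keratins (Krt7, Krt8, Krt18, Krt19, Krt20 and Krt23) made up 19.3 to 75.7% of keratin UMIs, and the basal keratins Krt5, Krt14 and Krt15 made up 0 to 2.5%. The 75.7% was mutant untreated replicate 1, and the highest share in the other untreated libraries was 41.2%. Keratins of cornified epithelium, such as Krt10 and Krt80, were above the simple-epithelium ones in wildtype untreated replicate 2 (33% against 30.4%). The same held in mutant untreated replicate 2 (40.8% against 19.3%). Keratins of hair follicles and other appendages, such as Krt83, made up 5.89 to 28.6% in untreated libraries. After DSS the basal keratins made up 41.5 to 58.2%, the injury keratins Krt6a, Krt6b, Krt16 and Krt17 made up 26.7 to 34.6%, and the simple-epithelium keratins 2.4 to 8.2%. These ranges do not overlap for any of these 3 lists. In sums over a whole library, fewer cells of a type and less RNA per cell cannot be told apart.

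**Figure D1:**
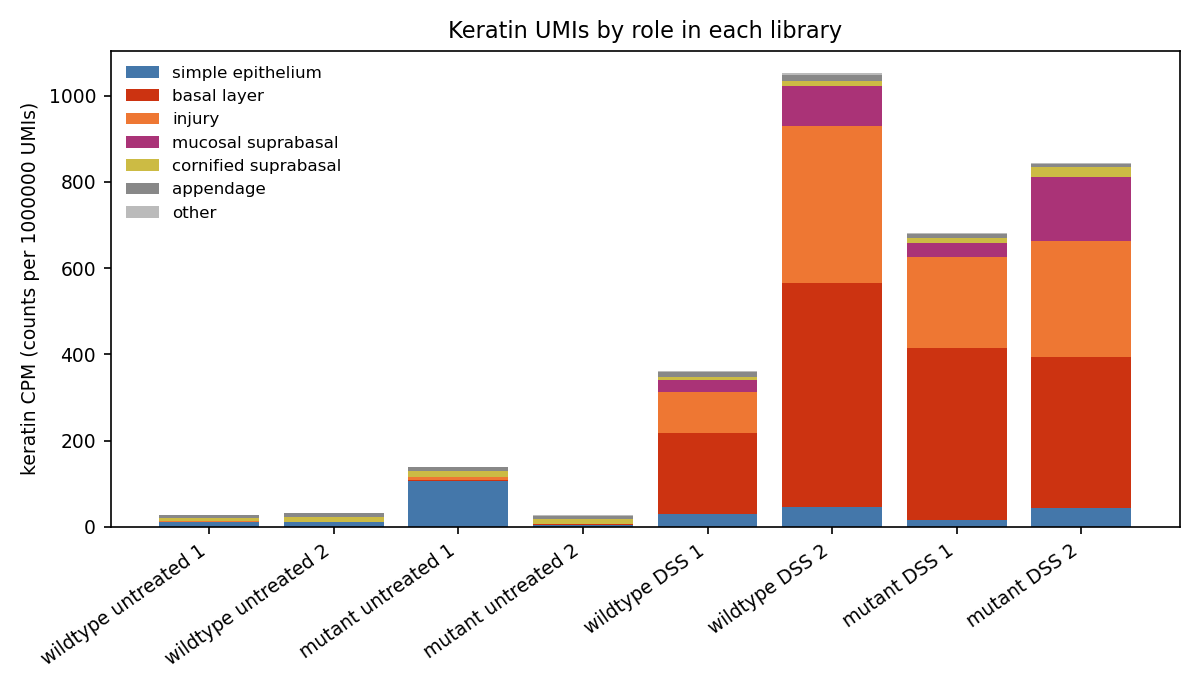
Keratin CPM in each of the 8 libraries, stacked by the role of the keratin (colours). The 4 DSS libraries are dominated by basal and injury keratins, and mutant untreated replicate 1 by simple-epithelium keratins.

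In the comparison of DSS with untreated libraries over both genotypes, 26 keratins had enough UMIs to be tested and 16 passed at an adjusted p under 0.05 (edgeR's quasi-likelihood test, Benjamini-Hochberg adjustment over 16565 genes). All 16 were higher after DSS, where 12.2% of all genes tested were called higher and 23.3% were called in either direction. Of the 26 tested keratins, 16 reached the level asked by the filter on low counts (0.224 CPM in at least 2 libraries) in fewer than 2 untreated libraries and entered the test through the DSS libraries, so that a difference was largely set for them and their number is no support by itself. Of the 10 keratins that reached this level in 2 or more untreated libraries, 3 passed (Krt7, Krt17 and Krt222). The levels of the 4 DSS libraries lay entirely above those of the 4 untreated libraries for 16 of the 26 keratins, beside 17.1% of all genes, and 33.1% of all genes had no overlap in either direction. The number of calls rests on the spread between few libraries: without wildtype untreated replicate 2 it was 6 (Krt5, Krt6a, Krt6b, Krt13, Krt14 and Krt16), and leaving out any other library gave 12 to 18. The keratins just named kept their call without each library in turn, but all of them entered the test through the DSS libraries. Keeping the call is therefore no support by itself. Krt7, Krt17 and Krt222, which reached the filter's level in untreated libraries, lost the call without wildtype untreated replicate 2. Besides the loss without wildtype untreated replicate 2, the call was lost for Krt7, Krt12, Krt20 and Krt222 without wildtype untreated replicate 1, for Krt12, Krt42 and Krt222 without mutant untreated replicate 1, for Krt7, Krt12, Krt42 and Krt222 without mutant DSS replicate 2, for Krt42 and Krt222 without mutant DSS replicate 1, and for Krt222 without wildtype DSS replicate 1.

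**Figure D2:**
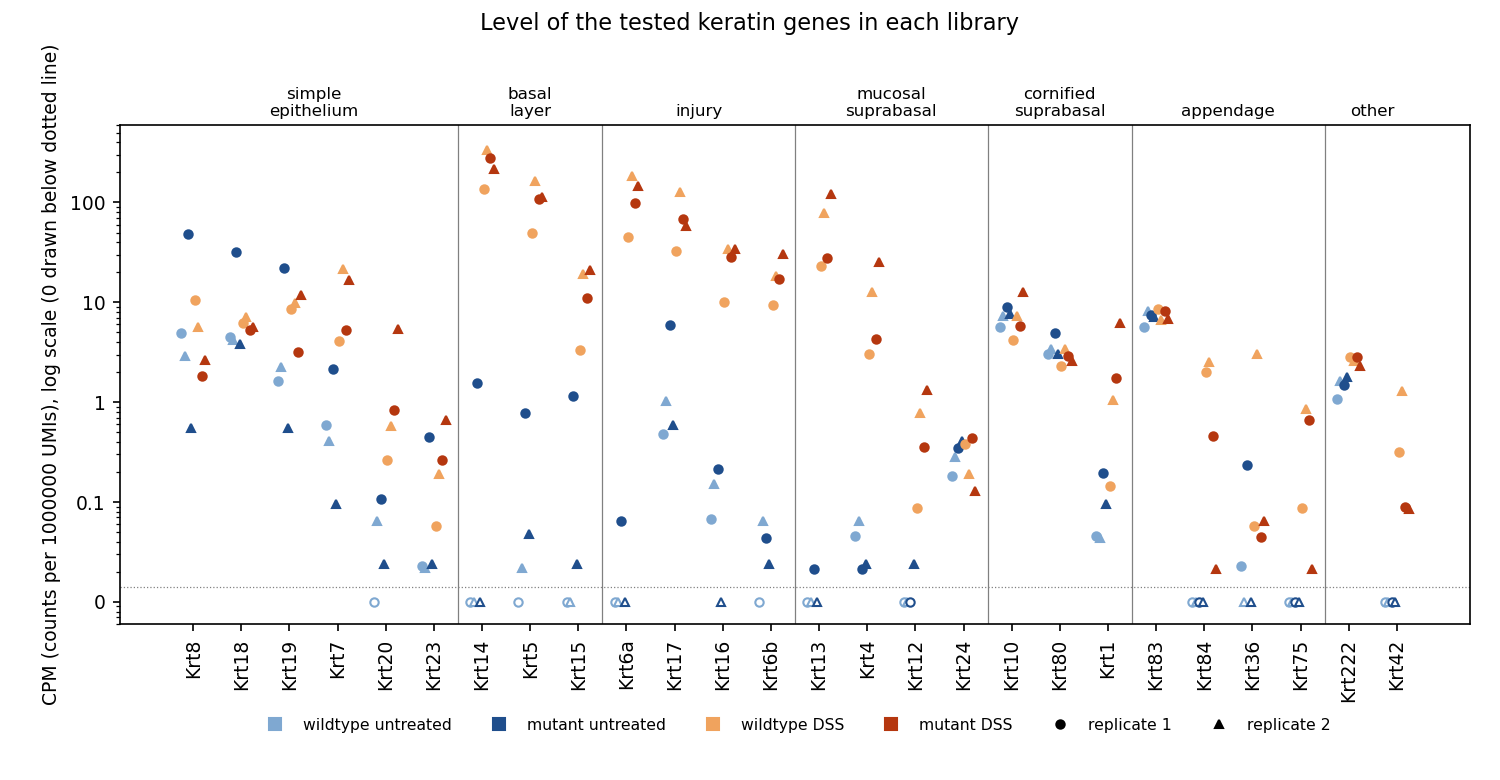
CPM (log scale) of the 26 tested keratins in each library, grouped by role. Colours give the group, circles replicate 1 and triangles replicate 2, and open symbols under the dotted line are counts of 0. The basal and injury keratins, Krt4 and Krt13 are higher in all 4 DSS libraries than in any untreated library, while Krt10, Krt80, Krt83 and Krt24 overlap between the arms.

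The basal keratins had the highest summed level after DSS, carried by Krt14 and Krt5, while Krt15 was below Krt6a, Krt17, Krt13, Krt16 and Krt6b in mean CPM. Krt5, Krt14 and Krt15 all entered the test through the DSS libraries, so that a difference was largely set for them. Krt14, the type I keratin of basal keratinocytes (chromosome 11, 100203162 to 100207548, minus strand), was at 0 in 3 untreated libraries and at 1.55 CPM in mutant untreated replicate 1. It reached 135 and 337 CPM in the wildtype DSS libraries and 277 and 215 in the mutant DSS libraries. Every DSS library was thus far above every untreated library. The pooled CPM was 611-fold higher after DSS (95% counting interval 485 to 780, adjusted p = 0.00474 by edgeR), and at least 10854-fold higher without mutant untreated replicate 1, taking 3 counts over the remaining untreated libraries as the floor. Such intervals, here and below, leave out the spread between mice and between barcodes. Krt5, its type II partner (chromosome 15, 101707070 to 101712898, minus strand), was at 0 and 0.0216 CPM in the wildtype untreated libraries and at 0.776 and 0.0476 in the mutant ones. It rose to 49 and 164 in wildtype DSS and to 109 and 114 in mutant DSS libraries, with no overlap (514-fold, interval 376 to 723, adjusted p = 0.00247). Krt15, a keratin of the basal layer and of the hair follicle bulge, was at 0 and 0 in wildtype and 1.14 and 0.0238 in mutant untreated libraries. After DSS it was at 3.33 and 19.1 in wildtype and 11.1 and 20.9 in mutant libraries (47.1-fold, interval 36 to 62.9, adjusted p = 0.0125), again without overlap.

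The promoter of Krt5 is shown because Krt5 passed the test, and that of Krt8 because Krt8, a type II keratin of the same cluster on chromosome 15, did not. Each run covers 250 bases before to 50 after the start of the gene in RefSeq (GRCm38.p6), read 5′ to 3′ on the gene's own strand, which is the minus strand for all of those printed here. Capitals mark matches, on either strand, to TATAAA (the TATA box) or TGACTCA (the consensus site of the AP-1 factors). GGGCGG (the GC box) was searched too and had no match in these windows. A match describes letters only.
Krt5, chr15:101712856-101713155: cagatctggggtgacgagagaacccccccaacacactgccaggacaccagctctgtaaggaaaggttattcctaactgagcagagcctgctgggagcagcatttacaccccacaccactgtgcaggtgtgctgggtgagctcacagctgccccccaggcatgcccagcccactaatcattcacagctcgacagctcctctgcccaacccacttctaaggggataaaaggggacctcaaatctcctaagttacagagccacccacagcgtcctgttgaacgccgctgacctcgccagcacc
Krt8, chr15:102004293-102004592: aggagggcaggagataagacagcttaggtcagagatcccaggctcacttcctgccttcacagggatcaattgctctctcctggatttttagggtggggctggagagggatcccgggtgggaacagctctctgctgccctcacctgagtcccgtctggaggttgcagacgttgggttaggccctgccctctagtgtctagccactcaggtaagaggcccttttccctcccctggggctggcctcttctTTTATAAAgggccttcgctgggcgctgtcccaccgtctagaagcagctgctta
Krt5 held none of the 3 motifs in this window. Krt8 held 2 overlapping TATAAA matches, 1 on each strand. RefSeq promoters were found for 36 of the 53 keratins, in 37 windows, of which 3 (for Krt7, Krt13 and Krt14) lie wholly inside the gene, around a start 989 to 1518 bases downstream of its 5′ end. The window of Krt14 is 1 of these, so the promoter at the 5′ end of Krt14 was not searched. TATAAA was in 19 of these windows and in 13.6% of all 32851 promoters of the same length. GGGCGG was in 2 of the keratin windows (Krt75 and the internal window of Krt7) and in 35.7% of all promoters.

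All 4 injury keratins were called higher, beside 12.2% of all genes, but Krt6a, Krt6b and Krt16 entered the test through the DSS libraries and only Krt17 reached the filter's level in 2 or more untreated ones. Krt6a, a type II keratin induced at wound edges (chromosome 15, 101689910 to 101694307, minus strand), was at 0 in 3 untreated libraries and at 0.0647 CPM in mutant untreated replicate 1. It reached 44.7 and 182.5 in wildtype DSS and 98.7 and 146 in mutant DSS libraries, so that all DSS libraries were high (7259-fold, interval 2483 to 35201, adjusted p = 0.00304). Krt6b, its close paralog, went from 0 and 0.0648 in wildtype and 0.0431 and 0.0238 in mutant untreated libraries to 9.33 and 18.5 in wildtype DSS and 17.2 and 30.5 in mutant DSS libraries (585-fold, interval 268 to 1595, adjusted p = 0.00146). Over the last 500 bases of their transcripts, Krt6a and Krt6b shared none of 451 windows of 50 bases, so their 3′ reads can be told apart. Krt16, a type I partner of the KRT6 keratins, was at 0.0679 and 0.151 in wildtype and 0.216 and 0 in mutant untreated libraries. It reached 10.2 and 34.3 in wildtype DSS and 28.6 and 34.3 in mutant DSS libraries (249-fold, interval 161 to 408, adjusted p = 0.00304). Krt17 was the injury keratin with the highest untreated level, at 0.476 and 1.02 in wildtype and 5.93 and 0.594 in mutant untreated libraries. After DSS it was at 32.4 and 129 in wildtype and 68.2 and 58.8 in mutant libraries (35.6-fold, interval 32.1 to 39.6, adjusted p = 0.00754). None of these 4 genes overlapped between arms. Part of the 3′ end is shared among Krt14 (9.53% of windows), Krt16 (16.9%) and Krt17 (9.53%). The share of Krt16 also counts windows shared with the gene Gm11597. Reads from these stretches cannot be assigned to 1 gene.

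Of the suprabasal keratins of mucosal and corneal epithelium, 3 of 4 tested were called higher, beside 12.2% of all genes. These 3 entered the test through the DSS libraries, and Krt24, which reached the filter's level in untreated libraries, did not pass. Krt13, a type I keratin of the upper layers of oesophagus, tongue and other wet squamous linings (chromosome 11, 100117327 to 100121566, minus strand), had 1 UMI in the 4 untreated libraries, in mutant untreated replicate 1. It was at 23.1 and 78.8 CPM in wildtype DSS and 27.5 and 122 in mutant DSS libraries (pooled ratio 11718, counting interval 2103 to 462874, adjusted p = 0.00512). Krt4, its type II partner, was at 0.0216 to 0.0648 in the untreated libraries. It was at 3.01 and 12.8 in wildtype DSS and 4.3 and 25.6 in mutant DSS libraries (309-fold, interval 150 to 769, adjusted p = 0.00655). Wildtype DSS replicate 2 and mutant DSS replicate 2 were the highest libraries for both genes, and no DSS library overlapped an untreated one. Krt12, known from the corneal epithelium, had 1 UMI before treatment and stood at 0.087 and 0.787 in wildtype DSS and 0.353 and 1.32 in mutant DSS libraries (pooled ratio 121, interval 21.3 to 4814, adjusted p = 0.0204). Krt24 did not pass (adjusted p = 0.951), at 0.181 to 0.404 in untreated and 0.128 to 0.441 in DSS libraries.

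Of the keratins with a RefSeq window, Krt13 alone held TGACTCA, which was in 5.2% of all promoters. The 2 matches were in a window at a start inside the gene, 989 bases downstream of its 5′ end, and the window at the 5′ end held 0. Both are printed to show this, the 5′ end first.
Krt13, chr11:100121517-100121816: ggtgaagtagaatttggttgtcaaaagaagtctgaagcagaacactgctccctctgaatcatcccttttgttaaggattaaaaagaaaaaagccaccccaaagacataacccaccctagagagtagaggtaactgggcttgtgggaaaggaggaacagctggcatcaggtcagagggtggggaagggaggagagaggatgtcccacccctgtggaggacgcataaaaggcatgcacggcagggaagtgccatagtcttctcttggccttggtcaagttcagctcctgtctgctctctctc
Krt13, chr11:100120528-100120827: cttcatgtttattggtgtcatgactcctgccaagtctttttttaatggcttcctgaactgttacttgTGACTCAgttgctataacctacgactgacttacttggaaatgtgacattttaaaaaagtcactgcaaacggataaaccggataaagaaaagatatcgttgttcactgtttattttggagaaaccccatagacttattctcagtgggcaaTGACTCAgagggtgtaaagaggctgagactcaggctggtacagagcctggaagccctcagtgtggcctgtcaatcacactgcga

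Among the keratins of cornified epithelium, 1 of 3 tested was called higher, beside 12.2% of all genes. This was Krt1, which entered the test through the DSS libraries. Krt1, the suprabasal type II keratin of epidermis, was at 0.0453 and 0.0432 in wildtype and 0.194 and 0.0951 in mutant untreated libraries. It was at 0.145 and 1.05 in wildtype DSS and 1.74 and 6.24 in mutant DSS libraries (26.2-fold, interval 16.2 to 45.5, adjusted p = 0.0134). The arms overlapped, since wildtype DSS replicate 1 was below mutant untreated replicate 1. Krt10, its type I partner, was at 5.66 and 7.26 in wildtype and 8.88 and 7.56 in mutant untreated libraries, and at 4.2 and 7.29 in wildtype DSS and 5.78 and 12.6 in mutant DSS libraries. Its arms overlapped throughout (log2 fold change 0.01 ± 0.28 SE, adjusted p = 0.981). Krt80 was at 3.01 to 4.89 in untreated and 2.32 to 3.43 in DSS libraries (log2 fold change -0.32 ± 0.20 SE, adjusted p = 0.256). The 4 other members, Krt2, Krt9, Krt77 and Krt78, had 28 UMIs or fewer over all libraries and were not tested.

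The simple-epithelium keratins divided: 2 of 6 rose, beside 12.2% of all genes, and the other 4 did not pass. Of the 2, Krt20 entered the test through the DSS libraries, and Krt7 reached the filter's level in untreated ones. Krt8, the type II keratin of the colon lining (chromosome 15, 101996698 to 102004482, minus strand), was at 4.96 and 2.9 CPM in wildtype untreated and 48.4 and 0.547 in mutant untreated libraries. It was at 10.6 and 5.65 in wildtype DSS and 1.83 and 2.64 in mutant DSS libraries. The highest and the lowest level were thus the 2 mutant untreated libraries, and every DSS library lay between them (log2 fold change -1.15 ± 0.95 SE, adjusted p = 0.402). Krt18, its type I partner (chromosome 15, 102028180 to 102032027, plus strand), was at 4.46 and 4.19 in wildtype and 32.3 and 3.83 in mutant untreated libraries. After DSS it was at 6.2 and 7.1 in wildtype and 5.27 and 5.69 in mutant libraries (log2 fold change -0.50 ± 0.52 SE, adjusted p = 0.499). Krt19, found in simple and ductal epithelium, was at 1.63 and 2.27 in wildtype and 22.2 and 0.547 in mutant untreated libraries. After DSS it was at 8.64 and 9.87 in wildtype and 3.18 and 11.9 in mutant libraries (log2 fold change 0.88 ± 0.86 SE, adjusted p = 0.480).

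Mutant untreated replicate 1 set the direction for Krt8 and Krt18, whose log2 fold changes turned positive without it, and the call for Krt19, which was positive with and without it. Without it the log2 fold change was 1.502 for Krt8 (adjusted p = 0.0542), 0.54 for Krt18 (adjusted p = 0.067) and 2.98 for Krt19, which then passed (adjusted p = 0.0353). Without mutant untreated replicate 2, the lowest library for Krt8, both Krt8 (log2 fold change -1.63, adjusted p = 0.0211) and Krt18 (-0.90, adjusted p = 0.013) passed as lower after DSS. No direction can therefore be given for Krt8 or Krt18.

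Krt7, a type II keratin of ductal and transitional epithelium, rose from 0.589 and 0.411 in wildtype and 2.16 and 0.0951 in mutant untreated libraries to 4.06 and 21.5 in wildtype DSS and 5.25 and 16.7 in mutant DSS libraries (14.7-fold, interval 12.4 to 17.4, adjusted p = 0.0209). Krt20, a type I keratin of differentiated intestinal surface cells and of urothelium, was at 0 and 0.0648 in wildtype and 0.108 and 0.0238 in mutant untreated libraries. It was at 0.261 and 0.572 in wildtype DSS and 0.839 and 5.34 in mutant DSS libraries (37.9-fold, interval 19.7 to 83.7, adjusted p = 0.016). Neither overlapped between arms, and mutant DSS replicate 2 held most of the Krt20 UMIs (251 of 322). The log2 fold change of Krt20 was 4.53, and 3.61 without that library (adjusted p = 0.0481), and the call was lost without either wildtype untreated library (adjusted p = 0.0511 and 0.0655). Krt23 did not pass (adjusted p = 0.202), at 0.0216 to 0.453 in untreated and 0.058 to 0.66 in DSS libraries.

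The same untreated library also set the size of several rises, because it held most of the untreated UMIs. Without mutant untreated replicate 1 the pooled ratio was 4946 for Krt5 (interval 1692 to 23986), 1885 for Krt15 (338 to 74487), 104 for Krt17 (85.2 to 129), 63.2 for Krt20 (24.4 to 233), 41.3 for Krt1 (20.8 to 96.3) and 33 for Krt7 (24.9 to 44.8). Krt6a and Krt13 then had 0 untreated UMIs and were at least 5377-fold and 2893-fold higher, by 3 counts over the remaining untreated libraries. Krt12 had its only untreated UMI in mutant untreated replicate 2, and without that library was at least 30.8-fold higher. The size of some rises rested on 1 DSS library. Without mutant DSS replicate 2, which held 293 of the 421 DSS UMIs of Krt1, the pooled ratio was 11.1 for Krt1 (interval 6.64 to 19.6), 11.6 for Krt20 (5.77 to 26.4), 176 for Krt4 (84.9 to 438) and 76.4 for Krt12 (13.1 to 3074). Without wildtype DSS replicate 2, which held 54 of the 73 UMIs of Krt42, the floor gave at least 8.93-fold for Krt42 and at least 42.8-fold for Krt84, described next.

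Of the 24 hair follicle and other appendage keratins in the gene list, 4 could be tested and 1 was called higher, beside 12.2% of all genes. This was Krt84, which entered the test through the DSS libraries. Krt84, a hair and tongue keratin, was at 0 in all untreated libraries, at 2 and 2.55 CPM in wildtype DSS and at 0.463 and 0.0213 in mutant DSS libraries (at least 70-fold higher, with 3 counts in all untreated libraries together as the floor, adjusted p = 0.0194). Krt75, of the companion layer of the follicle, was also at 0 before treatment and reached 0.0213 to 0.858 after DSS (at least 24.7-fold higher by the same floor), but did not pass (adjusted p = 0.0615). Without wildtype DSS replicate 2 it was at least 16-fold higher, and it passed with DESeq2, without a filter on low counts and without wildtype DSS replicate 1 (edgeR adjusted p = 0.0443). Krt36 had 127 of its 134 DSS UMIs in wildtype DSS replicate 2 and did not pass (adjusted p = 0.246). Krt83, a hair shaft keratin, stood at 5.68 to 8.26 in untreated and 6.65 to 8.64 in DSS libraries, overlapping throughout (log2 fold change 0.10 ± 0.17 SE, adjusted p = 0.679).

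Both tested keratins outside these lists were called higher, beside 12.2% of all genes. Krt42 entered the test through the DSS libraries, and Krt222 reached the filter's level in untreated ones. Krt42 was at 0 in all untreated libraries, at 0.319 and 1.29 in wildtype DSS and at 0.0883 and 0.0852 in mutant DSS libraries (at least 25.8-fold higher by the floor above, adjusted p = 0.0218). Krt222 was at 1.09 and 1.64 in wildtype and 1.49 and 1.78 in mutant untreated libraries and at 2.81 and 2.57 in wildtype DSS and 2.82 and 2.32 in mutant DSS libraries. Its arms did not overlap (log2 fold change 0.82 ± 0.21 SE, adjusted p = 0.0316), but the call was lost on leaving out any of 6 of the 8 libraries (adjusted p up to 0.0966). A further 19 keratins had UMIs but were not tested. Of these, Krt79 had 7 untreated and 65 DSS UMIs (54 of them in mutant DSS replicate 2), Krt78 had 4 and 24, Krt87 had 20 and 29, Krt28 had 17 and 6, Krt86 had 10 and 9, and Krt25 had 6 and 5. The remaining 13 had under 10 UMIs each over all libraries.

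To see which cells carried these UMIs, barcodes were classed from genes other than keratins. A barcode was put in the squamous class when it held at least 5 UMIs over at least 3 of 24 squamous epithelium genes (such as Trp63, the master regulator of stratified epithelium, and the desmosomal cadherin Dsg3) and at least as many of these as of 25 columnar colon epithelium genes. The columnar class was defined likewise with more columnar UMIs. The squamous class held 0 of 13879 barcodes in wildtype untreated replicate 1 (exact 95% upper limit 0.0266%) and 1, 4 and 3 barcodes in the other untreated libraries, of which only the 4 of mutant untreated replicate 1 held a keratin UMI (565 in all). It held 36 and 132 barcodes in the wildtype DSS libraries and 99 and 76 in the mutant DSS libraries, or 0.321 to 0.937% of their barcodes. The mean share was 0.0176% ± 0.0163 (SD, n = 4) in untreated and 0.648% ± 0.256 (SD, n = 4) in DSS libraries, with no overlap. An exact two-sided permutation test gave p = 0.0286, the smallest that 4 against 4 libraries allow, and 0.0571 after adjustment over the 2 classes.

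The columnar class had shares that overlapped between the arms. It held 11 and 5 barcodes in wildtype untreated libraries, 92 and 5 in mutant untreated, 13 and 5 in wildtype DSS and 10 and 2 in mutant DSS libraries. The mean share was 0.246% ± 0.382 (SD, n = 4) in untreated and 0.0581% ± 0.0424 (SD, n = 4) in DSS libraries (exact permutation p = 0.543, adjusted 0.543). Without mutant untreated replicate 1 the DSS mean was higher by 0.00331 percentage points, so this library alone set the direction. It was also the library with the high Krt8, Krt18 and Krt19 levels: its 92 columnar-class barcodes held 61.1% of its keratin UMIs.

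**Figure D3:**
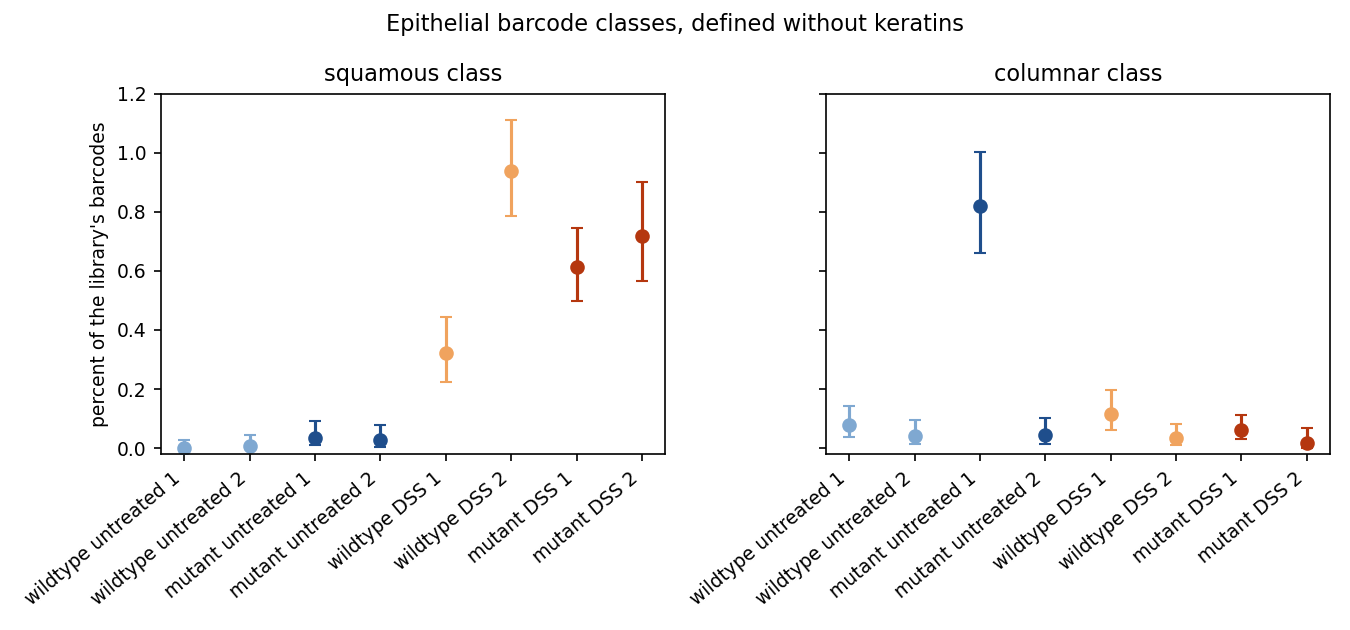
Share of each library's barcodes in the squamous and the columnar class, in percent, with exact 95% binomial intervals (counting error only). The squamous class is at 0.321% or more in all 4 DSS libraries and under 0.04% in all untreated ones, and the columnar class is high in mutant untreated replicate 1.

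After DSS, 119531 of 127180 keratin UMIs were in the 343 squamous-class barcodes, 87 to 96.8% of the keratin UMIs of each library. Keratins made up 1.67 to 2.12% of all UMIs in these barcodes. For 15 of the 16 keratins that rose, 93.7 to 99.3% of DSS UMIs lay in the squamous class. The exception was Krt222, with 0.679% there and 69.5% in the T cell class (at least 3 UMIs of the 5 receptor genes and in neither epithelial class). In the untreated libraries 41.8% of its UMIs were in the T cell class and 57.5% in barcodes of no class. The T cell class held 48.6% of the UMIs of all genes in untreated and 55.4% in DSS libraries. Krt83 likewise had 71.5% of its DSS UMIs and 84.5% of its untreated UMIs in the T cell class, and Krt24 had 78.7% and 81.5%. Krt10 was divided: 45.1% of its DSS UMIs were in the squamous class and 31% in the T cell class, against 0.228% and 39% before treatment. The 45.1% depends on mutant DSS replicate 2, which held all but 713 of the 1305 DSS UMIs. In CPM of the squamous class, Krt10 was at 12.4 and 71 in wildtype and at 26 and 200 in mutant DSS libraries. Of the Krt8 UMIs, 83.2% in untreated and 72.5% in DSS libraries were in the columnar class, although in mutant DSS replicate 2 the squamous class held 117 of 124 and the columnar class 0. Mutant untreated replicate 1 held all but 376 of the 2621 untreated Krt8 UMIs, so the 83.2% mostly describes that library. Krt18 was spread more widely, with 34.3% of its DSS UMIs in the squamous, 16.4% in the columnar and 40.3% in the T cell class. The class that held Krt19 differed between libraries. In the untreated libraries 57 of 72 and 76 of 105 Krt19 UMIs (wildtype) and 831 of 1029 and 4 of 23 (mutant) were in the columnar class. After DSS the squamous class held 335 of 414 in wildtype replicate 2 and 555 of 558 in mutant replicate 2, but 26 of 298 in wildtype replicate 1 and 60 of 144 in mutant replicate 1, where the columnar class held 259 and 63.

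**Figure D4:**
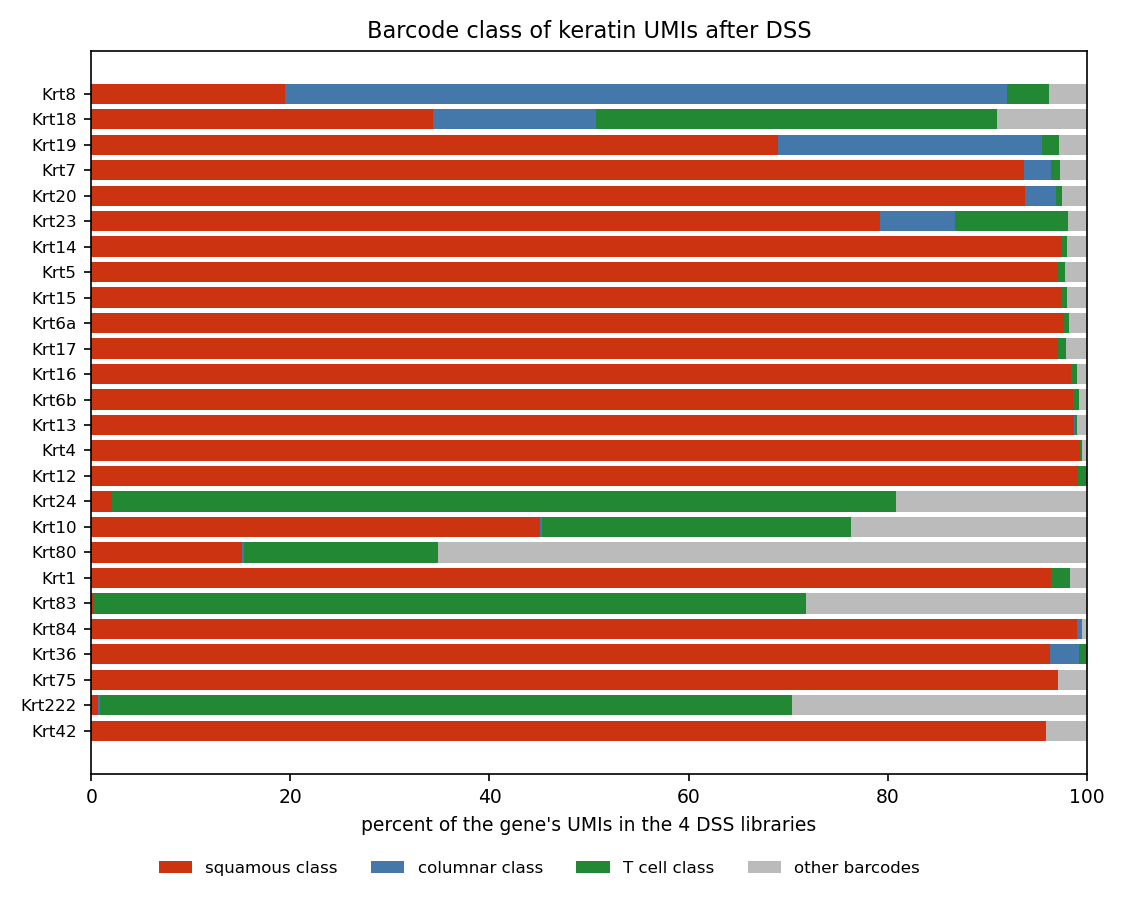
Share of each tested keratin's UMIs in the 4 DSS libraries, in percent, that lay in squamous-class, columnar-class, T cell class and other barcodes. Bars for Krt222, Krt83 and Krt24 are mostly T cell class, and that for Krt8 mostly columnar. Those of the basal and injury keratins, Krt4, Krt12 and Krt13 are almost wholly squamous.

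A Krt14 UMI was found in 96.2% of squamous-class barcodes of the DSS libraries, and Krt5 in 95.9%, Krt6a in 90.4%, Krt17 in 73.2%, Krt16 in 70%, Krt13 in 68.5%, Krt15 in 54.5% and Krt4 in 28.9%. In T cell class barcodes of the same libraries the shares were 0.595% for Krt14, 0.401% for Krt5, 0.361% for Krt6a and 0.108% for Krt13. The squamous class had median depths of 11505 to 19450 UMIs per library and the T cell class 2044 to 3017. Columnar-class barcodes of the DSS libraries held 1 UMI of Krt14 and 0 of Krt5, Krt6a, Krt16 and Krt17 in 30 barcodes. Krt13 had 7 UMIs there, in 5 of the 30 barcodes. Of the 343 squamous-class barcodes, 77 also had at least 3 T cell receptor UMIs and 221 at least 5 UMIs of the columnar list, which includes genes of epithelium in general such as Epcam and Cdh1. No doublet caller was run, and 46 of the 343 were near the limit of the class, with 5 to 7 squamous-list UMIs. Of the barcode sequences of the squamous class, 11 also occurred in another library and 0 were in the class in 2 libraries. Of all 351 squamous-class barcodes, 40 were on the authors' list of 27420 cells.

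Outside the squamous class the DSS libraries still held Krt14 UMIs: 29 and 525 in wildtype and 385 and 94 in mutant libraries, against 0, 0, 1 and 0 in the untreated ones. Refitting the comparison on these barcodes, an alternative chosen after seeing the data, called 8 of 17 tested keratins, beside 23.9% of all genes. Krt5, Krt6a, Krt6b, Krt13, Krt14, Krt16 and Krt222 were higher, and Krt10 was lower (log2 fold change -0.70 ± 0.13 SE, adjusted p = 0.0148). All those higher but Krt222 were at or under 0.1513 CPM in every untreated library and entered this test through the DSS libraries. A difference was largely set for them. In T cell class barcodes alone, 4 of 13 tested keratins were called, all higher, beside 11.3% of all genes called higher and 9.21% lower. Krt222 was at 1.07 and 1.41 in wildtype untreated, 1.23 and 1.42 in mutant untreated, 3.02 and 3.66 in wildtype DSS and 3.15 and 3.35 in mutant DSS T cell class barcodes (CPM of the class, log2 fold change 1.35 ± 0.19 SE, adjusted p = 0.0105). The other 3 were Krt14, Krt5 and Krt6a, at 0.219 to 3.91 CPM after DSS and at or under 0.0945 before. They entered this test through the DSS libraries, so that a difference was largely set for them. Whether free RNA in the droplets gave these low levels was not tested. Within the authors' cell list, 11 of 18 tested keratins were called, beside 17.5% of all genes: 10 were higher (8.59% of all genes) and Krt80 was lower (8.9% of all genes, log2 fold change -1.08 ± 0.24 SE, adjusted p = 0.0226). Of these 10, Krt5, Krt6a, Krt6b, Krt7, Krt13, Krt14, Krt15 and Krt16 had at most 3 UMIs in any untreated library. They entered this test through the DSS libraries too.

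Within the squamous class of the DSS libraries, keratins of different layers were often found on the same barcode. Krt5 and Krt14 occurred together in 326 barcodes, with 3 holding Krt5 alone and 4 Krt14 alone. Krt13 was found in 235 barcodes, and 232 of them also held Krt14. Krt4 was found in 99, of which 94 also held Krt13. Krt8 was found in only 24 barcodes, all with Krt14. Krt14 was in 330 of all 343 barcodes, so nearly any keratin would share most of its barcodes with it. Whether free RNA or doublets gave such pairs was not tested. By UMIs, 312 barcodes held more of the basal keratins (Krt5, Krt14 and Krt15) than of the mucosal ones (Krt13 and Krt4), 21 held more of the mucosal ones, and 10 held 0 UMIs of all 5 genes, and none of Krt6a, Krt6b, Krt16 or Krt17 either (7 of these 10 held Spink5, with 90 UMIs in all). Of the first 2 sets, 16 and 11 barcodes were within 2-fold of equality. The mucosal set had 3 and 4 barcodes in the wildtype and 1 and 13 in the mutant DSS libraries.

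**Figure D5:**
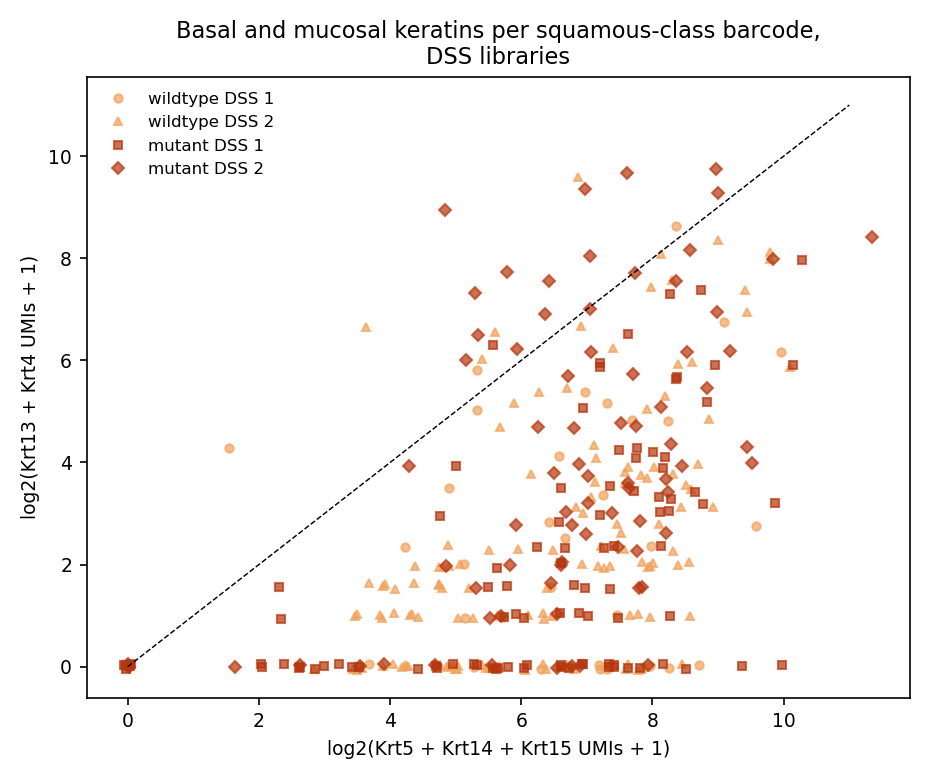
Basal (Krt5, Krt14, Krt15) against mucosal (Krt13, Krt4) keratin UMIs of each of the 343 squamous-class barcodes of the DSS libraries, as log2(UMIs + 1), with points moved by a small random amount. The dashed line marks equal UMIs: 312 barcodes lie below it and 21 above.

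Genes that did not enter this division also differed between the 2 sets, given here as pooled values with no test for genes chosen after their values were seen. Itga6 and Itgb4, the integrin pair that anchors basal cells to the basement membrane, were at 505 and 189 CPM in the basal set and 144 and 11.5 in the mucosal set. Col17a1, a hemidesmosome component, was at 265 and 44.1, and Krt17 at 2167 and 44.1. The differentiation genes Sprr1a and Cnfn, parts of the cornified envelope programme, were at 120 and 17 in the basal and 1923 and 696 in the mucosal set. Krt6b was at 356 and 2481, and Krt20 at 19.5 and 372. The proliferation genes Mki67 and Top2a were at 136 and 193 in the basal and 17.3 and 42.2 in the mucosal set. The mucosal set has 21 barcodes, 13 of them from mutant DSS replicate 2, so its values mostly describe that library.

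Genes that work with keratins were examined over whole libraries, where 12.2% of all genes tested were called higher and 11.1% lower. Of 24 squamous epithelium genes that are not keratins, 20 were tested and 16 rose. Of these 20, 13 entered the test through the DSS libraries as above, and 5 of the other 7 rose. Dsg3 and Dsc3, desmosomal cadherins of stratified epithelium, and Spink5, a protease inhibitor of the epidermis, were at or near 0 in all untreated libraries. Dsg3 was at 1.8 to 5.08 CPM after DSS (adjusted p = 0.00512), Dsc3 at 2.52 to 4.77 (adjusted p = 0.00381) and Spink5 at 6.09 to 9.41 (adjusted p = 0.00147). Calml3, a calmodulin-like protein of keratinocytes, was at 2.01 to 7.32 (adjusted p = 0.00724). Sfn and Lgals7, the list members with the highest mean levels, rose from 20.1 to 46.3 and from 12.8 to 16.4 before treatment to 45.5 to 106 (adjusted p = 0.0138, not called without wildtype untreated replicate 2 or mutant DSS replicate 2) and 34.4 to 128 (adjusted p = 0.00407), although the ranges of Sfn overlapped. Of 18 desmosome and keratin-linker genes, 17 were tested, 9 rose, 1 fell and 7 did not pass. Of the 9, 4 (Dsc2, Dsc3, Dsg3 and Pkp1) entered the test through the DSS libraries. Those that rose included Pkp1 (adjusted p = 0.00461) and Dsc2 (adjusted p = 0.00304), and Dsp (named after its values were seen), the plakin that ties keratin filaments to desmosomes, went from 1.12 to 4.83 to a range of 20.3 to 43.3 (adjusted p = 0.00461). Plec, a plakin found in many cell types, fell from 137 to 157 before treatment to 96.1 to 121 (log2 fold change -0.41 ± 0.10 SE, adjusted p = 0.0278), a call lost without any 1 library other than wildtype DSS replicate 2. Dst, a related linker, was at 84.1 to 131 before and 93.2 to 126 after and did not pass (adjusted p = 0.96), nor did Jup (plakoglobin), at 27.7 to 44.9 before and 19.1 to 35.5 after (adjusted p = 0.429), or Pkp2 (log2 fold change -0.37, adjusted p = 0.528), both named after their values were seen. These lists were chosen with earlier results of these libraries known and are not independent evidence of direction.

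Of the 25 columnar epithelium genes, 21 were tested, 1 rose (Cdh1, the adherens junction cadherin of all epithelia, adjusted p = 0.0325, not called without either wildtype untreated library, wildtype DSS replicate 2 or either mutant DSS library) and 1 fell (Selenbp1, a selenium-binding protein of differentiated colonocytes, adjusted p = 0.00978, and 0.0566 without wildtype untreated replicate 2), a share called below the 23.3% of all genes. Their median log2 fold change was -0.61, and 0.57 without mutant untreated replicate 1, where 4 of 22 tested were higher and 1 lower, so that library set its sign. Epcam, an adhesion protein of epithelia and the list member with the highest mean level, was at 18.4 to 36.6 before and 25.1 to 30.3 after DSS (adjusted p = 0.192). Markers of other cells also moved with DSS: 4 of 5 neutrophil markers rose, from a summed 16.8 to 29 CPM to 216 to 606, and 5 of 5 macrophage and monocyte markers fell, from 826 to 1634 to 570 to 621, beside the 12.2% and 11.1% of all genes called higher and lower. Of 6 endothelium markers 2 fell (Kdr and Cdh5), with the list at a summed 416 to 862 before and 223 to 397 after, and 5 of 6 fell without mutant untreated replicate 2. Of the T cell markers 1 rose (Cd4, adjusted p = 0.0102) and 1 fibroblast marker fell (Lum, adjusted p = 0.0499, lost on leaving out any of 6 libraries). Without wildtype untreated replicate 2 the calls left among these markers were the 4 neutrophil ones, the macrophage gene C1qb and Kdr. Their part in the keratin result was not tested. Mesothelium markers, which mark another keratin-bearing lining, summed to 0.6 to 1.9 before and 0.8 to 1.8 after DSS. Of the 3 tested, Msln (mesothelin, named after its values were seen) rose from 0 to 0.0649 before to 0.203 to 0.852 after (log2 fold change 5.47, adjusted p = 0.0165, not called without wildtype untreated replicate 2 or mutant DSS replicate 2). Msln entered the test through the DSS libraries, so that a difference was largely set for it. Mitochondrial UMIs were at 2.88 to 3.87% in all libraries.

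The DSS effect was also fitted within each genotype. In wildtype mice 6 of 26 keratins passed, Krt5, Krt6a, Krt6b, Krt13, Krt14 and Krt16, all higher and all entered in the test through the DSS libraries, beside 0.61% of all genes (0.411% higher and 0.199% lower). In mutant mice 7 of 26 passed, the same 6 and Krt4, which entered the test likewise (adjusted p = 0.0408 in mutant and 0.0636 in wildtype mice), beside 2.83% of all genes (1.68% higher and 1.15% lower). Krt17 missed the threshold in both (adjusted p = 0.0571 and 0.0563). Each group had 2 libraries. These counts were unstable: DESeq2 called 17 in wildtype and 11 in mutant mice, and they also changed when 1 library was left out. The cause was not tested. The wildtype count fell to 0 without either wildtype untreated library and to 1 without either mutant DSS library. The mutant count fell to 0 without mutant untreated replicate 1 or mutant DSS replicate 2, fell to 1 without either wildtype untreated library, and rose to 12 without either wildtype DSS library. The difference between the genotypes' DSS effects was tested as an interaction. No keratin passed (edgeR, 0 of 26, 0% of all genes, Krt36 and 188 genes in all had an unadjusted p under 0.05, and DESeq2 found 0 keratins and 7 genes).

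The 2 genotypes were compared directly as well, and no keratin passed with all libraries included. In untreated mice edgeR called 0 of 26 keratins and 0% of all genes. An unadjusted p under 0.05 was found for 2 keratins (Krt14 and Krt18) and for 492 of all 16565 genes, and with DESeq2 0 keratins passed. Krt14 and Krt18 were both highest in mutant untreated replicate 1. After DSS edgeR again called 0 of 26 and 0% of all genes. Krt1, Krt20, Krt36, Krt42 and Krt84 and 168 of all 16565 genes had an unadjusted p under 0.05, and with DESeq2 0 keratins passed. Keratins held by the same barcodes are not independent, so these counts are no test. The mutant against wildtype log2 fold changes after DSS were 0.03 ± 0.81 SE for Krt14, 0.04 ± 0.61 SE for Krt5 and 0.08 ± 0.60 SE for Krt6a. These intervals are wide, and a p that misses the threshold does not show that the genotypes are alike.

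Within squamous-class barcodes the genotypes could be compared after DSS, a comparison added after seeing the data. Krt14 was at 8165 and 6965 CPM of the class in wildtype and 7025 and 5057 in mutant libraries (log2 fold change -0.24 ± 0.19 SE), and Krt5 at 2945 and 3376 in wildtype and 2755 and 2677 in mutant libraries (-0.14 ± 0.17 SE). The largest differences were in Krt84, at 120 and 54.2 in wildtype and 12.1 and 0.505 in mutant libraries, and Krt42, at 19.4 and 26.1 in wildtype and 2.31 and 2.02 in mutant libraries. For both genes each wildtype library was above each mutant library, as also for Krt5 and Krt17. Krt1, Krt16, Krt20 and Krt23 had no overlap in the other direction. The share of all genes without overlap was not counted, so this is no support for a difference. Neither Krt84 nor Krt42 passed (edgeR adjusted p = 0.668 and 0.172). Krt20 and Krt1 lay the other way, at 8.82 and 10.7 against 17.9 and 124 and at 5.29 and 20.4 against 43.3 and 145, and did not pass either (adjusted p = 0.9998 for both). Of 22 keratins tested 0 were called, beside 0.0419% of all genes, and 0 were called by DESeq2. An unadjusted p under 0.05 was found for 5 keratins and for 302 of all 9557 genes tested. Without a filter on low counts some keratins were called, as given in the section on processing below.

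The gene models set a limit on some of these values. An antisense gene overlaps an exon of Krt5, Krt6a, Krt6b, Krt7, Krt8, Krt10, Krt12, Krt75 and Krt80 among the tested keratins, and the strand setting of the authors' counting was not given in the sources used here.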

How the data were processed

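For each 3′ 10x library the authors deposited UMI counts as a matrix of genes by barcodes, made with Cell Ranger 3.1.0 and Seurat 4.0.1 on mm10, per the submitters' processing notes. The deposited counts are whole numbers and not normalized. Gene rows were named from the deposited gene list, and all 53 keratin identifiers carry the same symbol in GENCODE M21. Every barcode held at least 500 UMIs, and all were used, not only the 27420 on the authors' cell list.

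UMI counts were summed per library and tested with edgeR 4.0.16 in R 4.3.3 (quasi-likelihood test, TMM scaling, filterByExpr with a minimum count of 10, 1 model of 4 groups, Benjamini-Hochberg threshold 0.05), with DESeq2 1.42.0 as the alternative. The test was checked on simulated counts first. Levels are counts per 1000000 UMIs (CPM). Fold changes of genes near 0 are ratios of pooled levels with exact 95% counting intervals, since fitted ones depend on the prior count. These intervals hold counting error only. UMIs per library ranged from 34497509 to 46960005. Class shares carry exact binomial intervals.

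Planned tests of DSS within each epithelial class needed 2 libraries per arm with at least 20 class barcodes. Only mutant untreated replicate 1 reached this for the columnar class and only the DSS libraries for the squamous class, so values alone are given. Alternatives covered scaling, filter, tool, barcodes used and each library left out. The T cell class was added after seeing the data. The members, the gene lists and the classes were chosen with earlier results of these data known. Every keratin that passed the filter is named with its values, untested ones where they had 10 UMIs or more. Of the other lists, up to 4 called genes with the largest change and the 2 with the highest mean were named. Genotype labels were not checked, because 3′ counts do not show a substitution.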

Additional observations from a re-analysis of the deposited data

Results flagged for a closer look

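Each arm of 4 libraries was searched for a library far from the other 3, by the ratio of its gap to the whole range. Of 56 groups looked at, 15 held such a library. Where the other 3 libraries hold no UMI, the ratio is 1 whatever the count in the remaining library. Keratins held by the same barcodes can also be flagged together. The 15 are therefore not independent, and no chance rate is given. Of these 15, 12 were mutant untreated replicate 1, the untreated library with 92 columnar-class and 4 squamous-class barcodes. It was the highest untreated library, in counts per 1000000 UMIs (CPM), for the simple-epithelium keratins Krt8 (48.4), Krt18 (32.3), Krt19 (22.2) and Krt23 (0.453). It was also the highest for the squamous keratins Krt17 (5.93), Krt14 (1.55), Krt15 (1.14), Krt5 (0.776), Krt6a (0.0647) and Krt13 (0.0216, which is 1 UMI), and for Krt36 (0.237). Its columnar-class share was 0.818% of barcodes. Of its 72 Krt14 UMIs, 71 lay in its 4 squamous-class barcodes.

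The other 3 were Krt12 in mutant untreated replicate 2 (0.0238 CPM, a single UMI), Krt20 in mutant DSS replicate 2 (5.34) and Krt36 in wildtype DSS replicate 2 (3.03), the last 2 far above the other DSS libraries.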

How the results depend on the processing

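The number of keratins called for DSS over both genotypes (16) was 6 to 18 when 1 library was left out, 8 outside the squamous class and 4 in T cell class barcodes. The wildtype count (6) was 17 with DESeq2, 12 without a filter on low counts, 1 on the authors' cell list, 0 without the 10 barcodes per library with the most keratin UMIs, and 0 to 8 with 1 library left out. The mutant count (7) was 11 with DESeq2, 12 without a filter and 0 to 12 with 1 library left out. The genotype count in untreated mice was 0 to 1 with 1 library left out, and that within the squamous class after DSS (0) was 8 without a filter. The cause was not tested. Where 1 library was left out, its group's remaining library was assumed to vary like the other groups.

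Of 479 single-keratin alternatives, 417 kept direction and call, 30 lost the call, 7 gained it and 25 changed sign. The log2 fold change of Krt8 became 1.502 without mutant untreated replicate 1 (-1.63 to 1.502 over all libraries left out), 0.20 on the authors' list and 0.0041 without the 10 top barcodes, and that of Krt18 became 0.54 (-0.90 to 0.54), 0.32 and 0.077, and 0.38 in the T cell class. Krt24 turned positive without any group's replicate 2 (0.07 to 0.27, and -0.62 to 0.27 over all libraries left out). Krt10 became -0.0028 by library size alone, -0.014 with the stricter filter, -0.31 to 0.24 with 1 library left out, -0.31 on the authors' list, -0.33 without the 10 top barcodes, -0.70 outside the squamous class and -0.45 in the T cell class. Krt19 became -0.98 and -1.23 in these last 2 sets, Krt7 -0.042 outside the squamous class, and Krt83 -0.12 on the authors' list and -0.34 in the T cell class. The columnar share difference became 0.00331 without mutant untreated replicate 1, and was -0.256 to 0.00331 over all libraries left out.

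No paired analysis was possible because the numbers in the sample titles are not shared between groups. Planned tests within each class could not be fitted. A count of 0 allows up to 0.087 counts per 1000000 UMIs in the shallowest library, so low keratins may have been missed.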
